A study of Rattus norvegicus with 5 samples.

Results

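The transcripts described here belong to the MAP kinase, protein kinase A (PKA), protein kinase C (PKC), AMP-activated protein kinase (AMPK), protein kinase G and calcium/calmodulin-dependent kinase (CaM kinase) families. They were chosen by gene symbol. A probe set was taken when its single symbol began with *Mapk*, *Map2k*, *Map3k* or *Map4k* followed by a digit, or with *Prka*, *Prkc*, *Prkg*, *Camk* or *Rps6k*, and 1 probe set stood for each gene, the one whose signal averaged highest across the 5 arrays. This gave 50 genes, measured by 91 probe sets, of 4736 genes and 8740 probe sets. Not all of them encode kinases. *Mapk8ip1* and *Mapk8ip2* encode scaffold proteins, *Camk2n1* and *Camk2n2* encode inhibitors of CaM kinase II, *Camkv* encodes a kinase-like vesicle protein without known activity, and several members of the *Prka* group encode regulatory subunits.

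These kinases carry signals from the cell surface to the cytoplasm and the nucleus. In a MAP kinase cascade a MAP3 kinase phosphorylates a MAP2 kinase, which phosphorylates a MAP kinase of the ERK, JNK or p38 class, and scaffold proteins hold the steps together. PKA is freed from its regulatory subunits by cyclic AMP, PKC isoforms respond, according to their class, to calcium together with diacylglycerol, to diacylglycerol alone or to neither, CaM kinases respond to calcium bound to calmodulin, and AMPK responds to a fall in cellular energy. In hypothalamic neurons the cyclic AMP, PKC and MAP kinase pathways are known to act on the *Trh* promoter, the regulatory region of the gene for thyrotropin-releasing hormone (TRH).

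RNA came from primary cultures of the hypothalamus of Wistar rat embryos at embryonic day 17, in 3 cell populations. GFP+ cells had been transfected with green fluorescent protein (GFP) under a short *Trh* promoter, with polyethylenimine as the carrier, and were sorted for GFP (2 arrays). GFP+/- cells were transfected in the same way and went through the cell sorter without selection, so that they hold cells with and without GFP (2 arrays). NT cells were not transfected (1 array). Transfected cultures received the DNA 24 h after seeding and were trypsinized 48 h later. RNA of 6 experiments was pooled for GFP+ cells and of 3 experiments for each of the other populations, and GFP marks only cells that took up the plasmid and used its promoter. The labels call the arrays of a population biological replicates, but by the study's methods they were run on aliquots of 1 RNA pool, so that SDs and p-values measure the spread between arrays only.

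Signals are MAS 5.0 intensities on a linear scale, which the authors had scaled to 1 mean per array, so that differences in total RNA cannot be seen. The brightest *Trh* probe set was dim in every population, with signals of 115 and 141 on the GFP+ arrays, 109 and 106 on the GFP+/- arrays and 96.6 on the NT array. A second *Trh* probe set was highest in NT cells, with 89.5 and 40.2, 86.8 and 51.0, and 122 in the same order. Between GFP+ and GFP+/- cells the log2 differences were 0.24 (SE 0.29, adjusted p = 0.761 with limma) and -0.15 (SE 0.53, adjusted p = 0.935). The summed signal of 16 neuronal marker genes was 35442 and 29131 in GFP+, 21803 and 24171 in GFP+/- cells and 47078 in NT, and that of 18 fibroblast and matrix genes was 21993 and 30682, 58263 and 57345, and 27373. The ratio of the 3' to the 5' control probe set of *Gapdh*, which rises when transcripts are cut short, was 14.6 and 17.6 in GFP+, 12.7 and 14.2 in GFP+/- cells and 5.45 in NT. In RNA of whole populations, fewer cells of a type and less RNA per cell cannot be told apart.

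Of the 50 genes, 28 were among the brightest 41% of probe sets, which had a mean signal of at least 175.4 over the 5 arrays, and 22 were dimmer. Dim transcripts repeated less well. The arrays of GFP+ cells differed by more than 2-fold for 6 genes, of which *Camk1* was the bright one, and those of GFP+/- cells for 4 genes, none of them bright. Signals of different probe sets do not share a scale, so values are compared only between populations.

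**Figure D1:**
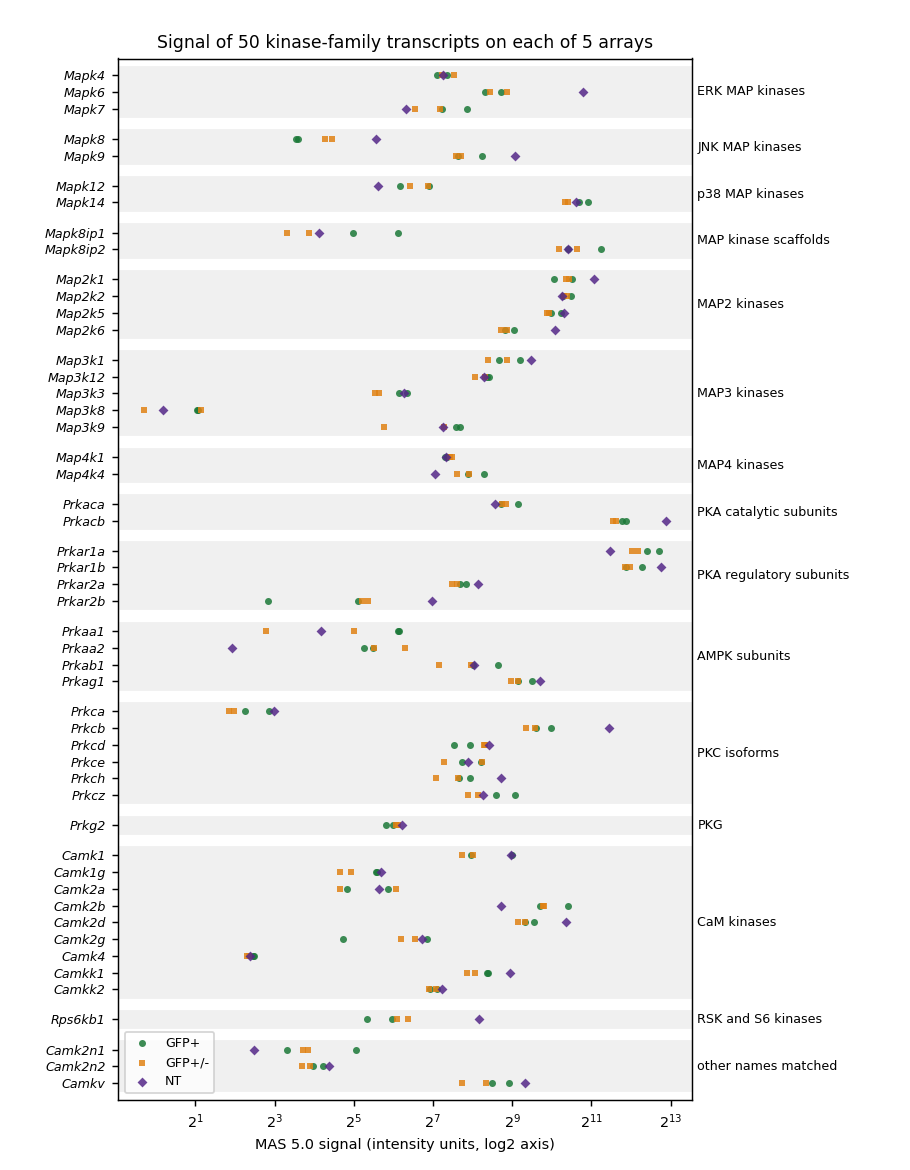
MAS 5.0 signal (log2 axis, intensity units) of the 50 transcripts on each of the 5 arrays, grouped by the role of the protein, with green circles for GFP+, orange squares for GFP+/- and purple diamonds for NT cells. *Mapk6*, *Prkcb* and *Prkacb* show the NT diamond far to the right of the other arrays (1771, 2803 and 7506), and *Prkaa2* shows it far to the left (3.81).

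GFP+ cells were first compared with GFP+/- cells, which asks what the sorted cells hold beyond the mixed culture. No kinase transcript passed limma at an adjusted p of 0.05, in either direction, and neither did any of the 8740 probe sets (0.0%). At an unadjusted p of 0.05, 4 members were higher (*Mapk14*, *Mapk8ip1*, *Prkaa1* and *Prkcz*), against 8.7% of all genes, and 0 were lower, against 5.07%. By the ratio of averaged signals, which was the study's own measure, *Mapk8ip1* and *Prkaa1* were more than 2-fold higher in GFP+ cells (4% of the members, against 6.97% of all genes) and no member was more than 2-fold lower (against 3.72%). The GFP+ arrays lay above both GFP+/- arrays for 22 members (44%, against 30.2% of all genes) and below both for 7 (14%, against 16.3%). The median log2 difference of the members was 0.245, beside 0.106 for all genes. Above 0 lay 37 of the 50, and 2842 of all 4736 genes. Among the 28 bright members the median was 0.267, beside 0.067 for all bright genes, with 25 above 0, beside 1343 of 2334 bright genes. In a fit of the bright probe sets alone 0 members passed (1.8% of bright genes passed as higher and 1.63% as lower). All 16 neuronal markers lay above 0 in the same comparison, with a median of 0.604, whereas 15 of the 18 fibroblast genes lay below it, with a median of -1.04. None of either list passed in the fit of all probe sets. In the fit of the bright probe sets alone the neuronal markers *Nefh* and *Nefl* passed as higher (adjusted p = 0.0003137 and 0.009657 with limma). Several fibroblast genes passed there as lower, such as *Thy1* and *Col1a1* (adjusted p = 0.004158 and 0.008226). Of the 10 mural and endothelial genes, 7 lay above 0 but *Acta2*, *Tagln* and *Cnn1* were more than 2-fold lower. The summed signal of all 10 was 2372 and 4272 in GFP+, 9727 and 11891 in GFP+/- cells and 1985 in NT. *Acta2* alone read 1053 and 2375 in GFP+, 6561 and 9059 in GFP+/- cells and 441.5 in NT. Of the 9 microglia and macrophage genes, 1 of them bright, 7 lay above 0, with a median of 0.612, 3 (*Itgam*, *Csf1r* and *Lyz2*) were more than 2-fold higher without overlap, and the sum was 1206 and 1088, 774 and 587, and 962. Under quantile normalization the median of all 8740 probe sets moved from 0.127 to -0.005 and that of the members to 0.159, and with equal medians on every array to -0.028 and 0.088. Of the 12 astrocyte genes, 5 lay above 0 and 7 below, with a median of -0.05. Their summed signal was 44077 and 44570 in GFP+, 43207 and 40166 in GFP+/- cells and 39412 in NT. Of the 8 oligodendrocyte genes, 3 of them bright, 5 lay above 0, with a median of 0.167. The part of all these cell types in the shift of the kinases was not tested.

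Among the PKC isoforms both signs occurred. *Prkcz*, which encodes the atypical isoform PKC zeta that needs neither calcium nor diacylglycerol, had signals of 534 and 388 in GFP+ cells, 281 and 237 in GFP+/- cells and 307 in NT cells. The GFP+ arrays stood above the 3 others, with a log2 difference from GFP+/- cells of 0.82 (SE 0.24, adjusted p = 0.257 with limma). With only the brightest 41% of probe sets in the fit its adjusted p was 0.0976. *Prkcb* and *Prkch*, of the calcium-dependent and the calcium-independent isoforms that respond to diacylglycerol, differed by 0.33 (SE 0.20, adjusted p = 0.543) and 0.44 (SE 0.28, adjusted p = 0.554). *Prkcd*, which encodes PKC delta, went the other way. It read 187 and 246 in GFP+, 318 and 311 in GFP+/- cells and 342 in NT, so that both GFP+ arrays were the lowest (log2 difference from GFP+/- cells -0.55, SE 0.23, adjusted p = 0.364). It was the only bright member whose GFP+ arrays lay below both GFP+/- arrays. *Prkce* had overlapping arrays, and *Prkca* was dim, at 3.60 to 7.88 on the 5 arrays.

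Of the MAP kinases and their scaffolds, *Mapk7*, the p38 kinase *Mapk14* and the JNK scaffold *Mapk8ip1* had GFP+ arrays above both GFP+/- arrays. *Mapk7*, which was dim, read 151 and 231 in GFP+ against 145 and 93.5 in GFP+/- cells. Its log2 difference was 0.68 (SE 0.37, adjusted p = 0.492 with limma), and its second probe set had overlapping arrays and the other sign (-0.44). *Mapk14* had signals of 1637 and 1941 in GFP+, 1303 and 1357 in GFP+/- cells and 1577 in NT, and the log2 difference between the first pair of populations was 0.42 (SE 0.17, adjusted p = 0.354). *Mapk8ip1*, also called JIP1, gave 69.2 and 31.7 in GFP+, 14.5 and 9.89 in GFP+/- cells and 17.6 in NT. All GFP+ values lay above the rest, but the GFP+ arrays themselves differed by more than 2-fold (log2 difference 1.97, SE 0.59, adjusted p = 0.258). The related scaffold *Mapk8ip2* read 2407 and 1365 in GFP+, 1605 and 1163 in GFP+/- cells and 1361 in NT, with overlap between the populations. *Mapk4*, *Mapk6*, *Mapk9* and *Mapk12* also had overlapping GFP+ and GFP+/- arrays. The JNK transcript *Mapk8* was dim, at 12.2 and 11.6 against 21.8 and 19.3.

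Upstream of the MAP kinases, the 4 MAP2 kinases, all bright, had a median log2 difference of 0.084 between GFP+ and GFP+/- cells, with single genes from -0.132 to 0.202. *Map2k1* and *Map2k2*, MAP2 kinases of the Ras to ERK cascade, read 1058 and 1450 against 1323 and 1393, and 1428 and 1248 against 1342 and 1276. Their arrays overlapped. *Map2k5*, which activates the ERK5 kinase encoded by *Mapk7*, read 1017 and 1203 against 947 and 977. The 5 MAP3 kinases all lay above 0 (2842 of all 4736 genes did). Their median of 0.484 is the value of *Map3k8*, which read 2.08 and 2.07 against 2.20 and 0.820, and the bright ones, *Map3k1* and *Map3k12*, differed by 0.31 and 0.20. *Map3k12*, a neuronal kinase of the JNK pathway, read 331 and 339 against 269 and 317, and *Map3k9*, a mixed-lineage kinase, 206 and 192 against 157 and 54.5. *Map3k1*, which feeds the JNK pathway, read 406 and 588 against 467 and 334. Of the MAP4 kinases, *Map4k4* had overlapping arrays and *Map4k1* read 163 and 157 against 172 and 180.

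The PKA and AMPK subunits did not pass either. Above 0 lay 2 of the 2 PKA catalytic, 3 of the 4 PKA regulatory and 3 of the 4 AMPK subunits. The others, *Prkar2b* and *Prkaa2*, were dim, and their GFP+ arrays lay below both GFP+/- arrays. *Prkar2b* read 34.61 and 7.198 against 36.83 and 40.75 (log2 difference -1.295, SE 0.7974, adjusted p = 0.5427 with limma). *Prkaa2* read 38.03 and 44.53 against 78.75 and 45.31 (-0.5375, SE 0.5047, adjusted p = 0.6895). *Prkar1a*, the type I alpha regulatory subunit that holds PKA inactive, read 6733 and 5382 in GFP+ and 4672 and 4209 in GFP+/- cells, without overlap (log2 difference 0.44, SE 0.19, adjusted p = 0.385). The catalytic subunit *Prkacb* read 3479 and 3729 against 3003 and 3170, and *Prkaca* 425 and 566 against 426 and 459. *Prkar1b*, the type I beta regulatory subunit common in neurons, read 4954 and 3734 against 3667 and 4004, with overlap. For AMPK, *Prkab1*, a scaffold subunit, read 401 and 260 against 249 and 143, without overlap (log2 difference 0.77, SE 0.36, adjusted p = 0.417). *Prkaa1*, a catalytic subunit, read 69.7 and 70.9 in GFP+ cells against 32.3 and 6.84 in GFP+/- and 18.0 in NT cells. GFP+ and GFP+/- cells differed by 2.24 on the log2 scale (SE 0.80, adjusted p = 0.311), and the 2 GFP+/- arrays differed from each other by more than 2-fold.

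Among the CaM kinases 7 of 9 lay above 0, with a median of 0.192, beside 2842 of all 4736 genes and a median of 0.106. *Camkk1*, which phosphorylates CaM kinases I and IV, read 335 and 328 in GFP+ and 266 and 233 in GFP+/- cells (log2 difference 0.41, SE 0.20, adjusted p = 0.423). *Camkv* read 489 and 358 against 324 and 214 (0.67, SE 0.28, adjusted p = 0.372). *Camk2b* and *Camk2d*, subunits of CaM kinase II, and *Camk1* had overlapping arrays. *Prkg2*, a cyclic GMP-dependent kinase, read 56.6 and 63.3 against 70.0 and 66.5.

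**Figure D2:**
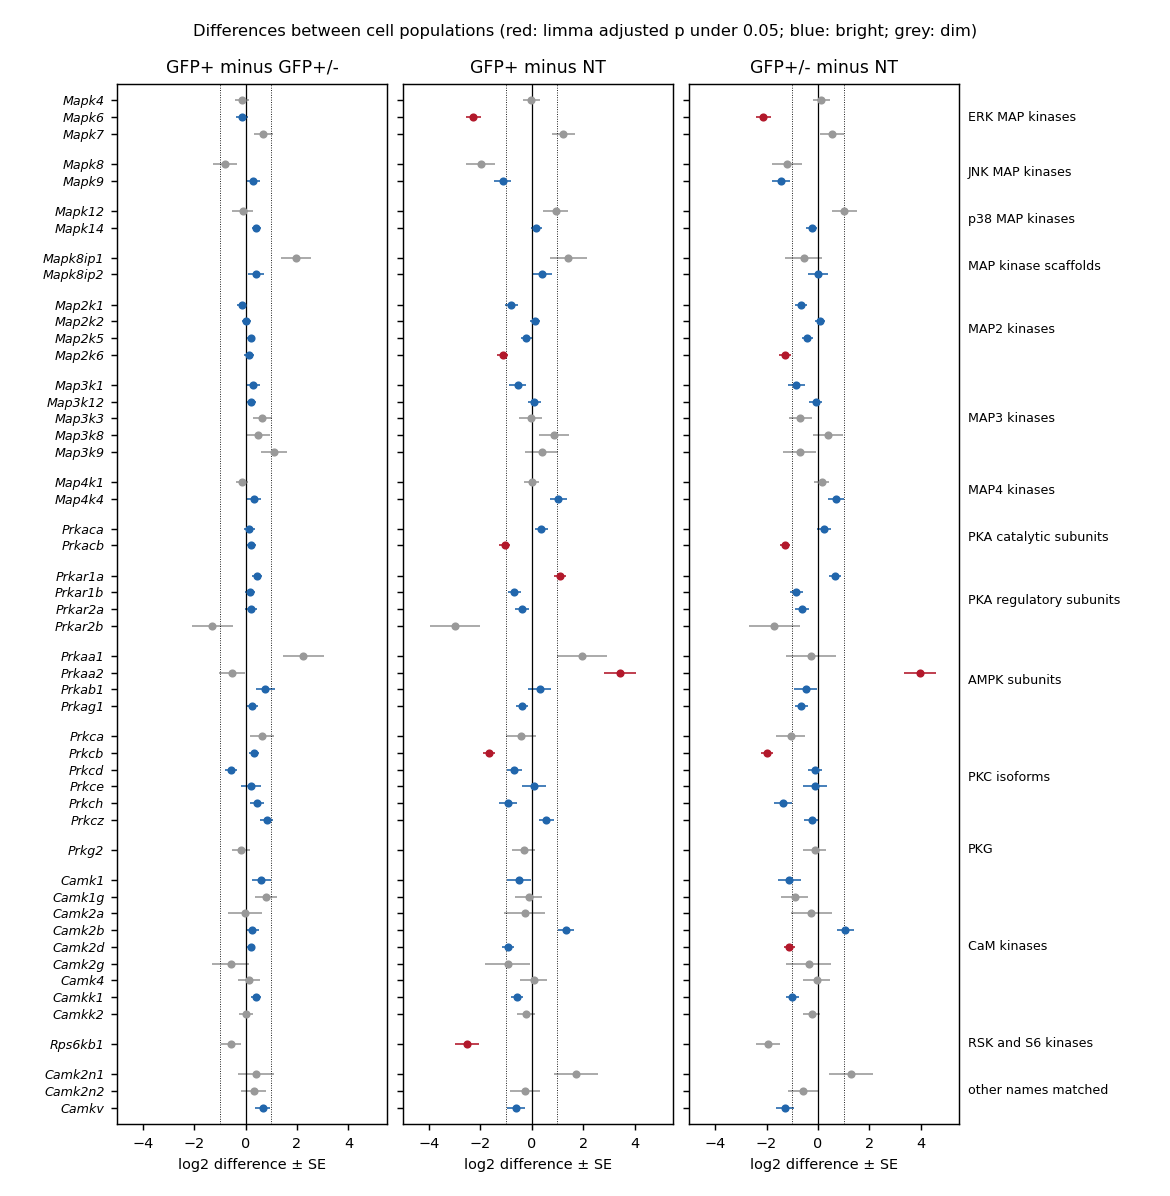
Log2 difference with its SE from limma for each of the 50 transcripts in the 3 comparisons, with blue points for members among the brightest 41% of probe sets, grey for dimmer ones and red for an adjusted p under 0.05; dotted lines mark 2-fold. No point is red in GFP+ minus GFP+/-, where most blue points lie just right of 0, whereas 7 are red in GFP+ minus NT and 6 in GFP+/- minus NT, most of them to the left.

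Both transfected populations were then compared with NT cells. This sets cells of transfected cultures that passed through the sorter against cells of cultures without the plasmid. GFP+/- cells were not selected, so for them the word transfected describes the culture and not each cell. Whether NT cells also went through the sorter is not given in the sources used here, so that transfection and sorting cannot be told apart. The 2 comparisons share the single NT array, so they are not independent, and the fit lends that array the spread of the other populations. In GFP+ cells 2 members rose (4%, against 4.31% of all genes) and 5 fell (10%, against 4.1%) with limma. In GFP+/- cells 1 rose (2%, against 4.54%) and 5 fell (10%, against 5.32%). More than 2-fold by the ratio of averaged signals, 8 members were higher and 8 lower in GFP+ cells (16% each, against 13.6% and 11.1% of all genes), and 4 were higher and 13 lower in GFP+/- cells (8% and 26%, against 11.7% and 13.8%). The GFP+/- arrays lay below the NT array for 32 members (64%, against 42.2%) and above it for 10 (20%, against 38%). The GFP+ arrays lay below it for 24 (48%, against 34.9%) and above it for 18 (36%, against 43.3%). The median log2 difference of the members was -0.216 in GFP+ cells, beside 0.086 for all genes, and -0.441 in GFP+/- cells, beside -0.045. Among the bright members the medians were -0.45 and -0.631, beside 0.128 and 0.059 for all bright genes.

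These calls rest on the fit of all 5 arrays with an intensity trend in the prior variance. Without that trend 0 members passed in either comparison (lowest adjusted p 0.0669 and 0.0748, both *Prkaa2*), and with any 1 transfected array left out 0 passed in GFP+ cells and 0 to 2 in GFP+/- cells, *Mapk6* and *Prkcb* being the 2. Calls of other genes rest on the same fit. Of all 8740 probe sets, 738 passed in GFP+ and 807 in GFP+/- cells, against 2 in each without the trend, and with 1 array left out 1 passed in GFP+ cells and 1 to 333 in GFP+/- cells. The *Gapdh* 3' to 5' ratio, higher on all 4 transfected arrays, and the neuronal marker sum, highest in NT cells, moved with the same contrast, and their part in it was not tested. Of the 16 neuronal markers, 3 fell and 1 rose in GFP+ cells, and 8 fell and 0 rose in GFP+/- cells.

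*Mapk6*, which encodes the atypical MAP kinase ERK3, fell in both transfected populations. It read 319 and 418 in GFP+ cells, 347 and 470 in GFP+/- cells and 1771 in NT cells. The 4 transfected arrays overlapped with each other and lay far below NT, with log2 differences of -2.28 (SE 0.30, adjusted p = 0.0158) in GFP+ and -2.13 (SE 0.30, adjusted p = 0.0181) in GFP+/- cells. A second, dimmer probe set made from the same sequence record read 3.80 and 3.78, 2.40 and 2.56, and 385, and passed in both comparisons as well (adjusted p = 0.00808 and 0.00978). The other ERK-class genes did not pass. *Mapk4*, or ERK4, read 139 to 184 on the transfected arrays and 152 on NT. *Mapk7*, or ERK5, read 151 and 231 in GFP+, 145 and 93.5 in GFP+/- cells and 79.8 in NT, a log2 difference of 1.23 for GFP+ (SE 0.45, adjusted p = 0.169) whose sign turned when its probe sets were averaged (-0.24).

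The 250 bases upstream of the RefSeq start of 4 genes are shown because these genes passed against NT cells in both transfected populations, *Mapk6*, *Map2k6* and *Prkacb* as lower and *Prkaa2* as higher. They are read 5′ to 3′ on the strand of the gene, from assembly GRCr8. Capitals mark a GC box (GGGCGG, or CCGCCC on the other strand) or a CCAAT box (CCAAT, or ATTGG). *Prkcb* passed in both as well.

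Mapk6, chr8:85050237-85050486, minus strand: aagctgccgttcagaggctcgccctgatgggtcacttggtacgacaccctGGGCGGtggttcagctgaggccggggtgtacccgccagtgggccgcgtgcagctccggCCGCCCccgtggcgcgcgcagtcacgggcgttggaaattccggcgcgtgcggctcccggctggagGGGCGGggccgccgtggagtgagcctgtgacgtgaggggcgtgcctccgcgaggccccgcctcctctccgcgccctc
Map2k6, chr10:95872497-95872746, plus strand: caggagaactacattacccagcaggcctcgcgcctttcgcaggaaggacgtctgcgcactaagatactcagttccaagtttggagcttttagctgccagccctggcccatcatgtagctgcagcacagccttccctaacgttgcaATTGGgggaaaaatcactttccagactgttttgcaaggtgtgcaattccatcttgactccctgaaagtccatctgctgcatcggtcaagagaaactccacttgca
Prkacb, chr2:238386316-238386565, minus strand: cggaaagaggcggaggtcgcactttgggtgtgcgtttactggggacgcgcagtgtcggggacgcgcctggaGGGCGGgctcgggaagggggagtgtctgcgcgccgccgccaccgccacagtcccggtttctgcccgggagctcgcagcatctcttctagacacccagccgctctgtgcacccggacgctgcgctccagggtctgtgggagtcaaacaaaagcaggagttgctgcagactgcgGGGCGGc
Prkaa2, chr5:125108325-125108574, minus strand: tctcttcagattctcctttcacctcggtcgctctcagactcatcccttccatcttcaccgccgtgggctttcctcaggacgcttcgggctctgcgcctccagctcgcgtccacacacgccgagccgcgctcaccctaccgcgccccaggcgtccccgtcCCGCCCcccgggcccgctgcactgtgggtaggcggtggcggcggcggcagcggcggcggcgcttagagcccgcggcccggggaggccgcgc

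The GC boxes began 200, 142 and 77 bases upstream in *Mapk6*, 179 and 7 in *Prkacb* and 91 in *Prkaa2*, and the CCAAT box 105 bases upstream in *Map2k6*. A GC box was in 30.5% of 33469 promoter windows of this length and in 71.4% of the 42 windows found for the members, and a CCAAT box in 34% and 23.8%. The cyclic AMP response element TGACGTCA, searched on both strands, was in 1.59% of all windows and in none of the members' windows, and the AP-1 motif TGANTCA in 6.34% and 2.38%. GC content was 74.0% in *Mapk6*, 51.2% in *Map2k6*, 68.0% in *Prkacb* and 72.8% in *Prkaa2*, and its median over all windows was 51.2%.

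**Figure D3:**
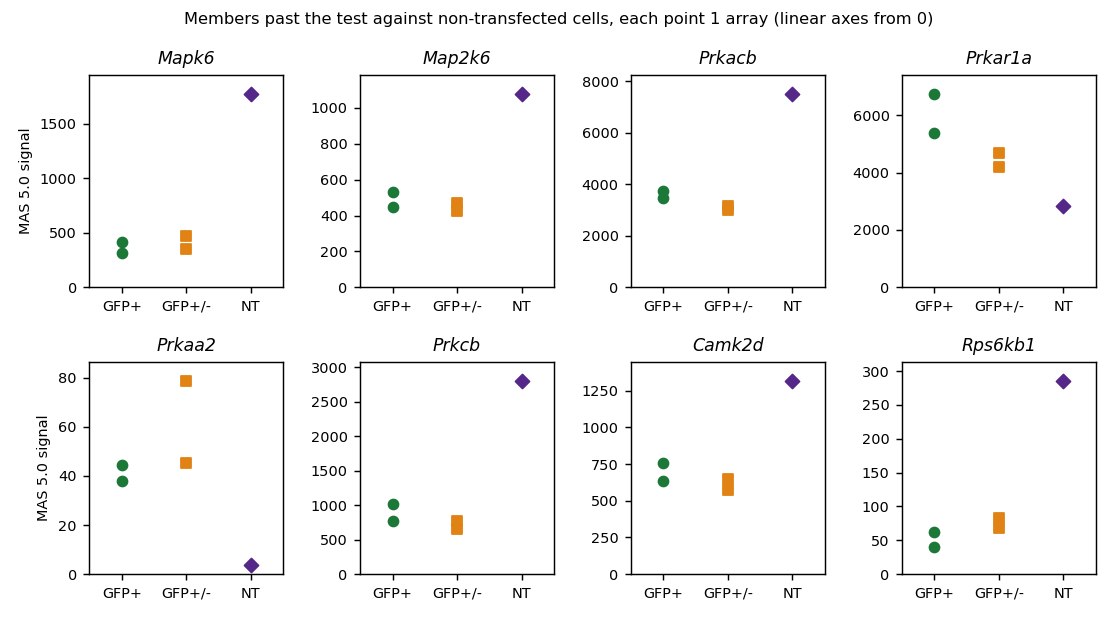
MAS 5.0 signal (linear axes from 0, 1 point per array) of the 8 transcripts that passed limma against NT cells in GFP+ cells, in GFP+/- cells or in both. The NT point stands above all others for 6 of the 8, such as *Prkcb* (2803 against 653 to 1011), and below them for *Prkar1a* (2825) and *Prkaa2* (3.81).

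In the JNK and p38 classes none passed. *Mapk9*, or JNK2, read 198 and 304 in GFP+, 191 and 208 in GFP+/- cells and 539 in NT. All transfected arrays lay below NT, with log2 differences of -1.14 (SE 0.33, adjusted p = 0.102) and -1.44 (SE 0.33, adjusted p = 0.0564). *Mapk8*, or JNK1, read 12.2 and 11.6, 21.8 and 19.3, and 47.1, with differences of -1.99 (SE 0.57, adjusted p = 0.0964) and -1.20 (SE 0.57, adjusted p = 0.274). *Mapk14* lay within the range of the transfected arrays in NT cells, and *Mapk12*, the p38 gamma gene, read 72.4 to 120 on the transfected arrays against 49.1. The scaffold *Mapk8ip1* was 1.41 above NT cells in GFP+ cells on the log2 scale (SE 0.72, adjusted p = 0.313).

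*Map2k6*, which activates p38, was the one MAP2 kinase that passed, and it did so in both comparisons. It read 533 and 450 in GFP+, 468 and 423 in GFP+/- cells and 1076 in NT, or log2 differences of -1.14 (SE 0.23, adjusted p = 0.0416) and -1.27 (SE 0.23, adjusted p = 0.0292). Its GFP+ and GFP+/- arrays overlapped, and the NT array stood far above all 4. *Map2k1* read 2147 in NT cells, above the 4 other arrays (log2 difference of GFP+ cells -0.79, SE 0.25, adjusted p = 0.119), whereas *Map2k2* read 1230 and *Map2k5* 1277 there. *Map3k1* read 710 in NT cells against 334 to 588 elsewhere. *Map4k4* was higher in transfected cells, at 312 and 237 in GFP+ and 194 and 242 in GFP+/- against 133 in NT, with log2 differences of 1.04 (SE 0.32, adjusted p = 0.114) and 0.71 (SE 0.32, adjusted p = 0.252).

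Of the PKA subunits, 1 catalytic subunit fell and 1 regulatory subunit rose. The catalytic subunit *Prkacb* read 3479 and 3729 in GFP+, 3003 and 3170 in GFP+/- cells and 7506 in NT. It fell in both, by 1.06 (SE 0.20, adjusted p = 0.0358) and 1.28 (SE 0.20, adjusted p = 0.0229) on the log2 scale, and its GFP+ arrays lay above its GFP+/- arrays. A second, dimmer probe set did not pass in either (-0.43, adjusted p = 0.761, and -1.73, adjusted p = 0.171). *Prkaca*, the other catalytic subunit, read 378 in NT cells, below the 4 other arrays, and differed by 0.38 (SE 0.26, adjusted p = 0.469) and 0.23 (SE 0.26, adjusted p = 0.682). The regulatory subunit *Prkar1a* read 2825 in NT cells, below 4209 to 6733 elsewhere. It rose in GFP+ cells by 1.09 (SE 0.24, adjusted p = 0.0496), just inside the threshold and outside it with equal medians (1.05, adjusted p = 0.0595), and differed by 0.65 in GFP+/- cells (SE 0.24, adjusted p = 0.163). *Prkar1b* read 6885 in NT cells, above 3667 to 4954 elsewhere, and *Prkar2a*, a type II subunit, 284 against 178 to 227. *Prkar2b* was dim and scattered, with 34.6 and 7.20 in GFP+, 36.8 and 40.8 in GFP+/- cells and 125 in NT (log2 differences -2.99, SE 0.98, adjusted p = 0.130, and -1.69, SE 0.98, adjusted p = 0.367).

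One AMPK subunit rose in both transfected populations. *Prkaa2*, the alpha 2 catalytic subunit, read 38.03 and 44.53 in GFP+, 78.8 and 45.3 in GFP+/- cells and 3.81 in NT. All 5 signals were dim, and the log2 differences of 3.43 (SE 0.62, adjusted p = 0.0320) and 3.97 (SE 0.62, adjusted p = 0.0229) shrank to 1.53 in GFP+ cells, without passing (adjusted p = 0.0744), and to 1.94 in GFP+/- cells (adjusted p = 0.0390) when 16 was added to each signal. *Prkaa1* differed by 1.96 between GFP+ and NT cells (SE 0.98, adjusted p = 0.302). The regulatory subunit *Prkag1* read 834 in NT cells, above 501 to 726 elsewhere, and *Prkab1* read 262 there, inside the range of the other arrays. The S6 kinase *Rps6kb1*, which promotes translation downstream of mTOR, read 40.2 and 62.9 in GFP+, 67.9 and 82.2 in GFP+/- cells and 285 in NT. It fell by 2.51 (SE 0.47, adjusted p = 0.0345) in GFP+ cells and differed by -1.93 (SE 0.47, adjusted p = 0.0618) in GFP+/- cells. Its second probe set did not pass in GFP+ cells (-0.50, adjusted p = 0.822).

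Of the PKC isoforms, *Prkcb* fell in both. It read 778 and 1011 in GFP+, 765 and 653 in GFP+/- cells and 2803 in NT, or log2 differences of -1.66 (SE 0.25, adjusted p = 0.0211) and -1.99 (SE 0.25, adjusted p = 0.0150). Its 2 dimmer probe sets were also highest in NT cells, at 124 and 113, and 1 of them passed in GFP+ cells (-3.18, adjusted p = 0.0371). All 6 PKC isoforms lay below 0 in GFP+/- cells, with a median of -0.659, and 4 of 6 in GFP+ cells, with a median of -0.546. Of all 4736 genes, 2466 lay below 0 in GFP+/- cells and 2161 in GFP+ cells. *Prkch* read 246 and 201, 198 and 135, and 422, and did not pass (-0.93, SE 0.34, adjusted p = 0.170, and -1.37, SE 0.34, adjusted p = 0.0671). A second, much dimmer *Prkch* probe set read 44.5 in NT cells against 0.859 to 5.22 elsewhere. It passed in GFP+/- cells (-4.45, adjusted p = 0.0488) and not in GFP+ cells (-3.61, adjusted p = 0.0845). The log2 difference of *Prkcz* in GFP+ cells was 0.57 (SE 0.30, adjusted p = 0.322). *Prkce* read 237 in NT cells, within the range of the other arrays.

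The CaM kinase II subunits lay on both sides of NT cells. *Camk2d*, the delta subunit, read 755 and 637 in GFP+, 570 and 647 in GFP+/- cells and 1316 in NT, and fell in GFP+/- cells by 1.12 on the log2 scale (SE 0.22, adjusted p = 0.0377). With equal medians it did not pass (adjusted p = 0.0506), nor with its 6 probe sets averaged (adjusted p = 0.185). In GFP+ cells the difference was -0.92 (SE 0.22, adjusted p = 0.0648). *Camk2b*, the beta subunit typical of neurons, went the other way, with 1350 and 832, 875 and 887, and 420. Its log2 differences of 1.33 (SE 0.32, adjusted p = 0.0626) and 1.07 (SE 0.32, adjusted p = 0.103) did not pass in the fit of all probe sets, and passed with only the brightest 41% (adjusted p = 0.00895 and 0.0240). *Camk2a* and *Camk2g* were dim and their arrays scattered. *Camkk1* read 496 in NT cells, above 233 to 335 elsewhere, and *Camk1* read 506 there, with GFP+ arrays at 514 and 249. The inhibitor *Camk2n1* was dim, with 33.3 and 9.96, 13.2 and 14.3, and 5.57.

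With only the brightest 41% of probe sets tested, 3 members rose (*Map4k4*, *Prkar1a* and *Camk2b*) and 6 fell in GFP+ cells (10.7% and 21.4% of 28, against 16.3% and 14.2% of bright genes). In GFP+/- cells *Camk2b* rose and 10 fell (3.57% and 35.7%, against 16% and 15.2%). The 10 were *Mapk6*, *Mapk9*, *Map2k6*, *Prkacb*, *Prkar1b*, *Prkcb*, *Prkch*, *Camk2d*, *Camkk1* and *Camkv*.

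Genes with several probe sets allow a check within the arrays. Of the 50 genes, 25 had more than 1 probe set, with 41 further ones in all, and 12 genes were read from a probe set of the type that can match several transcripts. The further probe sets had the sign of the one used in 29 of 41 for GFP+ against GFP+/- cells, 29 of 41 for GFP+ against NT and 34 of 41 for GFP+/- against NT. Only 7 of the 41 were bright, and of these 5, 4 and 6 had that sign, in the same order. With the probe sets of each gene averaged, 2 members rose and 3 fell in GFP+ cells against NT, as *Prkacb* (adjusted p = 0.199) and *Rps6kb1* (adjusted p = 0.185) no longer passed. In GFP+/- cells 1 rose and 5 fell, but the 5 were not all the same genes as before, since *Camk2d* no longer passed. In 4 genes more than 1 probe set was bright. *Prkaca* and *Map2k5* kept 1 sign on their bright probe sets in each comparison. The 4 bright *Mapk14* probe sets were all higher in GFP+ than in GFP+/- cells (0.42, 0.18, 0.50 and 0.28) but differed in sign against NT. The 3 bright *Map2k2* probe sets gave 0.03, -0.20 and -0.33 for GFP+ against GFP+/- cells and 0.12, -0.12 and -0.28 for GFP+ against NT. The *Camkv* probe sets had opposite signs. Its bright probe set read 643 in NT cells, above 214 to 489 elsewhere (log2 difference of GFP+/- cells -1.29, SE 0.35, adjusted p = 0.0821), whereas the dimmer one read 12.6 in NT cells and 67.8 to 98.2 elsewhere (2.77 and 2.49, adjusted p = 0.0297 and 0.0353).

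**Figure D4:**
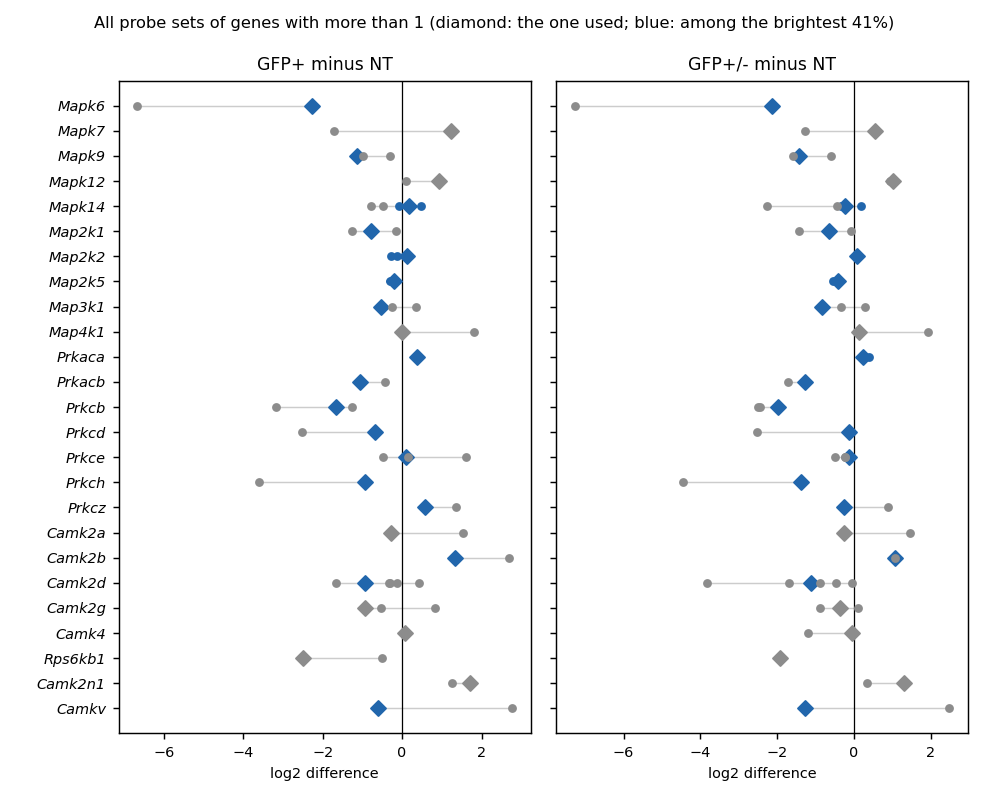
Log2 difference from NT cells of every probe set of the 25 genes that have more than 1, with a diamond for the probe set used and circles for the others, and blue for the brightest 41%. *Mapk6* and *Prkcb* have all their points left of 0 in both panels, while *Camkv* has its points on both sides.

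Partners of these kinases, from 6 lists of pathway genes, were set beside them. Measured were 13 Ras to ERK, 11 JNK and p38, 25 cyclic AMP and PKA and 21 phospholipase C and PKC genes. To these came 21 calcium and calmodulin and 15 mTOR, S6K and AMPK genes. None of them passed limma between GFP+ and GFP+/- cells in the fit of all probe sets. All 13 Ras to ERK genes lay above 0 there, with a median log2 difference of 0.287, beside 2842 of all 4736 genes and a median of 0.106. The lowest of the 6 list medians was -0.146, for the JNK and p38 list. In the fit of the bright probe sets alone the partner that passed was *Plcb4*, as higher (1.29, adjusted p = 0.0291 with limma). Of the 21 phospholipase C and PKC genes 5 were more than 2-fold higher without overlap, *Plcb4* and *Add1* being the bright ones, and 0 lower. The other lists had 0 or 1 in each direction. Of all genes 6.97% were more than 2-fold higher, with or without overlap. Against NT cells a few passed. Of all genes, 4.31% rose and 4.1% fell in GFP+ cells, and 4.54% rose and 5.32% fell in GFP+/- cells. *Gnai2*, the inhibitory G protein subunit that lowers cyclic AMP, read 3765 and 2993 in GFP+, 4876 and 4460 in GFP+/- cells and 849 in NT, and rose by 1.98 (SE 0.23, adjusted p = 0.0145) and 2.46 (SE 0.23, adjusted p = 0.0109) on the log2 scale. *Plcb1*, a phospholipase C upstream of PKC, read 844 and 885, 515 and 468, and 1809, with differences of -1.07 (SE 0.20, adjusted p = 0.0350) and -1.88 (SE 0.20, adjusted p = 0.0111). In the cyclic AMP and PKA list 2 genes rose and 1 fell in GFP+ cells, and 1 rose and 1 fell in GFP+/- cells. In the phospholipase C and PKC list these counts were 2 and 1, and 0 and 1. The JNK and p38 list had 2 that rose in GFP+ cells, *Jun* and *Junb*, which encode AP-1 factors that JNK can act on, and *Junb* in GFP+/- cells (*Junb* was named after its values were seen). *Dusp6*, an ERK phosphatase induced by ERK signalling, was the one Ras to ERK gene that rose in GFP+ cells (1.63, SE 0.30, adjusted p = 0.0341), and *Ywhab*, a 14-3-3 protein, the one that fell in GFP+/- cells. *Mtor* fell in GFP+/- cells (-1.10, SE 0.21, adjusted p = 0.0335), and no other gene of its list passed in either comparison with NT cells. In the calcium and calmodulin list only *Grin1*, which was dim, passed, and only in GFP+/- cells (-2.44, SE 0.46, adjusted p = 0.0333). It read 109 and 103 in GFP+, 20.7 and 19.9 in GFP+/- cells and 110 in NT (*Grin1* was also named after its values were seen).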

How the data were processed

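Total RNA of 2 GFP+, 2 GFP+/- and 1 NT sample was hybridized to Affymetrix rat genome arrays. The deposited values are intensities, 1 linear MAS 5.0 signal per probe set, which the authors scaled to 1 mean per array. The deposited arrays average 500.0 each after 2% is left out at either end, which is not the target that the study's methods state. The deposited scale was kept. Arrays carry no read depth, so that the number of arrays limits the precision. The table had no column from other samples.

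Of 8799 probe sets, 59 controls were left out. The platform annotation gave 1 symbol for 7006 of the 8740 others, several for 308 and none for 1426. All 50 members had a RefSeq gene (GRCr8) of the same Entrez ID and symbol. Signals under 1 were set to 1 before log2. Differences were tested with limma 3.58.1 in R 4.3.3, in 1 fit of all 5 arrays with a mean for each population, without covariates and with an intensity trend in the prior variance, which leaves 2 residual degrees of freedom and a median of 3.70 prior ones. Benjamini-Hochberg adjustment ran over all 8740 probe sets, with a threshold of 0.05. Ratios are those of averaged signals, with 2-fold as the limit. Promoter sequences are RefSeq's. Python 3.11.15, pandas 2.3.3, numpy 2.4.6, scipy 1.17.1 and matplotlib 3.10.9 made tables and plots.

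The members, the gene lists and the tests were chosen with earlier results of these data known. Genes are named if they were up to 3 of the highest mean signal in a role group, bright members with the largest ratios without overlap (up to 8 in each direction), members past limma, members with several bright probe sets, and up to 3 bright partners per list. Alternatives were only the brightest 41% of probe sets, an offset of 16, quantile normalization, equal medians, averaging all probe sets of a gene, a prior without trend, only the 4 transfected arrays, a block for the replicate number, and each transfected array left out.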

Additional observations from a re-analysis of the deposited data

How the results depend on the processing

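No member passed limma in GFP+ against GFP+/- cells under any alternative. With the replicate block the count was 0 (lowest adjusted p 0.182, *Prkcz*), and 2 of 8740 probe sets passed; samples that share a number correlated at 0.0632 over all probe sets and at 0.197 over the brightest 3583, and with 2 pairs and no shared source in the labels the numbers were not taken to pair them. Members more than 2-fold lower in that comparison were 2 under quantile normalization and 1 with equal medians, instead of 0, and members more than 2-fold higher were 0 among the brightest 41%, instead of 2. Leaving out 1 array gave 2 to 6 higher and 0 to 2 lower.

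Against NT cells, members more than 2-fold higher in GFP+ cells were 5 with 16 added to each signal and 3 among the brightest 41%, instead of 8, and members more than 2-fold lower were 5 among the brightest, instead of 8. In GFP+/- cells those more than 2-fold higher were 2 and 1 under the same settings, instead of 4. Members past limma in GFP+/- cells were 11 among the brightest 41%, instead of 6. Without the intensity trend 0 passed in GFP+ cells, instead of 7, and 0 in GFP+/- cells. Leaving out 1 array, which leaves 1 residual degree of freedom, gave 0 to 0 past limma and 4 to 7 more than 2-fold higher in GFP+ cells, and 0 to 2 past limma in GFP+/- cells. The median of all probe sets in GFP+/- against NT cells moved from -0.094 to 0.024 under quantile normalization, and that of the members to -0.351.

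When the probe sets of a gene were averaged, the sign turned for *Map2k2* (-0.10), *Mapk14* (-0.09) and *Mapk7* (-0.24) in GFP+ against NT cells and for *Camkv* (0.60) in GFP+/- against NT cells. Of the values for single genes under the alternatives, 484 kept their direction and their side of the threshold, 67 kept the direction and no longer passed, 10 newly passed and 4 turned. Only a value that had passed could stop passing, so the 67 came from the 7 members called in GFP+ and the 6 in GFP+/- cells against NT. The 484 include values that passed neither before nor after. Where a count changed, the cause was not tested beyond what fewer probe sets or arrays imply.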

Other observations

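One probe set stood outside the 50 genes because the annotation gives it 2 symbols, *Mapk8* and *Mapk10*, which encode the JNK1 and JNK3 kinases. It read 113 and 97.7 in GFP+ cells, 67.2 and 14.5 in GFP+/- cells and 140 in NT cells. Its GFP+ arrays lay above both GFP+/- arrays (log2 difference 1.75, SE 0.74, adjusted p = 0.372 with limma), and all 4 transfected arrays lay below NT. The probe set was dim, with a gap of more than 2-fold within GFP+/- cells.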
